A study of Psammomys obesus with 8 samples.

Results

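The 9 genes described here include Tet1, Tet2, Tet3, Tdg and Mbd4, which encode TET enzymes and glycosylases that act on methylated cytosine or its products. Mbd1, Mbd2 and Zbtb38 encode proteins that read DNA methylation, and Mbd3 encodes a related protein with little affinity for methylated CpG in mammals. Methylated DNA was captured from the hypothalamus of *Psammomys obesus*, the fat sand rat, a gerbil of arid regions that can become obese and diabetic on energy-rich food. It was sequenced, and the reads were counted on assembled stretches of sequence called contigs. A contig was a member when its name in the deposited table gave 1 of these 9 symbols as the mouse gene it matches, at a distance of 0, that is, inside the gene. By this rule 70 of 548060 contigs were members, among 125082 contigs that lie inside a gene, and they covered 9 of 19098 genes. The contig counts were also summed within each gene.

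The standard-low group holds 4 libraries whose titles read Standard-Low lipid and whose diet label is Standard Lipid. The low-low group holds 4 libraries titled Low-Low lipid with the diet label Low lipid. All 8 came from the hypothalamus of males at 16 weeks after birth, and no strain, treatment or genotype beyond these labels is given. The design text names the diet of the fathers as what differed, while the title of the series speaks of parental diet, and the labels do not say which generation the diet entry describes. Capture used MethylMiner, a kit that holds back methylated double-stranded DNA on the MBD domain of the MBD2 protein. A count therefore reflects how methylated a stretch is together with how many CpG sites it has and how much of that sequence is present, and it is not a measure of how much of the gene's RNA or protein there was. The comparison asks whether methylated DNA of these 9 genes was captured to a different extent in standard-low than in low-low offspring.

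TET enzymes oxidise 5-methylcytosine to 5-hydroxymethylcytosine and then to 5-formylcytosine and 5-carboxylcytosine, and the glycosylase TDG cuts out the last 2 of these forms so that base excision repair can put back an unmodified cytosine. MBD4 is a glycosylase that removes the thymine left when a methylated cytosine deaminates. MBD1 and MBD2 bind methylated CpG through an MBD domain and recruit repressor complexes, MBD3 is a subunit of the NuRD complex with little affinity for methylated CpG in mammals, and ZBTB38 binds methylated CpG through zinc fingers. Brain is rich in 5-hydroxymethylcytosine, a form that the MBD2 domain binds poorly.

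Stretches of 5 member contigs are given because the results below turn on them, and they show how unlike their CpG content is. Each is the stretch of at most 300 bases with the most CpG in its contig, 5′ to 3′ in the orientation of the deposited table, in lower case with every CpG in capitals. Contig 2638552 of Zbtb38 (796 bases, mouse match chr9:96696156-96696951) had the lowest p of the members. Contig 3450967 of Tet2 (917 bases, chr3:133494399-133494629) was CpG-poor and higher in standard-low. Contig 3701621 of Tet3 (327 bases, chr6:83382677-83382772) had the highest CpG density of the members, contig 4440717 of Mbd3 (801 bases, chr10:80395043-80395582) is from the gene with the most negative sum, and contig 4067091 of Tet1 (874 bases, chr10:62878129-62879010) matched mouse over its whole length and had similar values in both groups. The positions are mouse positions as the table gives them, and their build is not given in the sources used.
Zbtb38 contig 2638552: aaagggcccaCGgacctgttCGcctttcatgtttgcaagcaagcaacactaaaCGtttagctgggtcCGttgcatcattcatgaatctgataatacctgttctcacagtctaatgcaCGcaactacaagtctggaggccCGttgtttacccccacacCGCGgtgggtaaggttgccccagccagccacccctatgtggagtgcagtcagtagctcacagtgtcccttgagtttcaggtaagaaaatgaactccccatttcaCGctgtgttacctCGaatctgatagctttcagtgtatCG
Tet2 contig 3450967: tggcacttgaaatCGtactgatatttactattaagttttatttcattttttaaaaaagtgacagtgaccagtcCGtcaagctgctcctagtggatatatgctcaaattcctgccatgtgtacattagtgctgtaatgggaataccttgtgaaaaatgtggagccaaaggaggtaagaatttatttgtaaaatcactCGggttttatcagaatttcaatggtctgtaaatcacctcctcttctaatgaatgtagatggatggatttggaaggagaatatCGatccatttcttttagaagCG
Tet3 contig 3701621: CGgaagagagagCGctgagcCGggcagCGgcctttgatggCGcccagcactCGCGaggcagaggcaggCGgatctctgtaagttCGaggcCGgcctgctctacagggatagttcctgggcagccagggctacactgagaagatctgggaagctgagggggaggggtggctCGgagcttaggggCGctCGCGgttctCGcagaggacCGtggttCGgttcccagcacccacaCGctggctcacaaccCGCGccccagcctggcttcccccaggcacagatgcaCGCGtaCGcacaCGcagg
Mbd3 contig 4440717: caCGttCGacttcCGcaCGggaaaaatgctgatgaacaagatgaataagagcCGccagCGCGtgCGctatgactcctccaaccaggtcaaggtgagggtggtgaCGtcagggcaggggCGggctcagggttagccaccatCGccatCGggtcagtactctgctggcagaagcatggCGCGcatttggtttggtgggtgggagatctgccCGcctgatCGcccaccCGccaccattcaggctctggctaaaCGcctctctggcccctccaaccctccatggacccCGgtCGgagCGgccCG
Tet1 contig 4067091: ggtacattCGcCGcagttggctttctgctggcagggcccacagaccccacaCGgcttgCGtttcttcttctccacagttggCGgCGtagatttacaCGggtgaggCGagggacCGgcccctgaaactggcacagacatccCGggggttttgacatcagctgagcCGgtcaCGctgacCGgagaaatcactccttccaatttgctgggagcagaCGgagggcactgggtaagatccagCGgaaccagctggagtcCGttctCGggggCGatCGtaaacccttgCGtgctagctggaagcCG

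In these stretches the Tet3 contig holds 24 CpG, the Mbd3 contig 22, the Tet1 contig 21, the Zbtb38 contig 2638552 holds 11 and the Tet2 contig 5. Contig 782896 of Zbtb38 and contig 3701621 of Tet3 were the only 2 of the 70 members that met the usual sequence definition of a CpG island (at least 200 bases, at least 50% GC and an observed-over-expected CpG ratio of at least 0.6), with ratios of 0.791 and 0.739. That is 2.86% of the members, against 1.57% of all contigs in genes. The Tet3 contig needs care as to its gene, since 30.3% of its bases aligned to mouse and 10.97% of its 18-base words recurred at least 10 times in the table, against a median of 0.160% for contigs in genes, so part of it is repeated sequence.

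Library totals were 11646180 to 12156525 counts in standard-low and 12528388 to 13533441 counts in low-low, and a member contig had 4 to 146 counts in a library, with a median of 26.9 per library against 17.4 over all contigs. Values are given as CPM, counts per 1000000 of the library total times its TMM factor (a scaling factor of edgeR). Standard-low 2 and standard-low 4 stood apart in base composition. Over the decile of all contigs richest in GC, summed CPM relative to the mean of the 8 libraries was 0.00, -0.29, 0.16 and -0.14 on the log2 scale in standard-low 1 to 4, against 0.04, 0.07, 0.11 and 0.06 in low-low 1 to 4. Standard-low 2 was the lowest of the 8 libraries at 21 of the 70 member contigs and the highest at 13. Summed over the 70 members it had 178 CPM, against 182 CPM to 199.7 CPM in the other standard-low libraries and 191 to 203 CPM in low-low. Because of this, results are also given from a fit in which each library is scaled within bins of GC content and CpG density over the whole table (the composition-scaled fit, chosen after the data were seen). Captured DNA does not measure expression, so the labelled tissue could not be checked by marker genes. Of 32 marker genes of neurons, hypothalamic neuropeptide cells, glia, microglia and endothelium 26 had contigs, 0 of their 357 contigs passed the threshold, and 9 were higher and 10 lower at an unadjusted edgeR p under 0.05, beside 2.93% higher and 2.76% lower over all contigs. Of the 26 sums 9 were positive and 17 negative in standard-low, beside 41.4% positive over all gene sums. Those of all 4 oligodendrocyte genes (median log2 fold change -0.23) and all 4 microglial genes (median -0.10) were negative. The sums were positive for 3 and negative for 2 neuronal genes, 1 and 4 hypothalamic genes, and 1 and 3 astrocyte genes. All 4 endothelial sums were positive (median 0.01). At an unadjusted edgeR p under 0.05 stood 1 of the 26, a microglial sum lower in standard-low, as were 4.32% of all gene sums. These marker values are from the fit without composition scaling. With the scaling the share of positive values over all gene sums was 48.9%. The part of the marker genes' cell types in the values below was not tested.

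**Figure D1:**
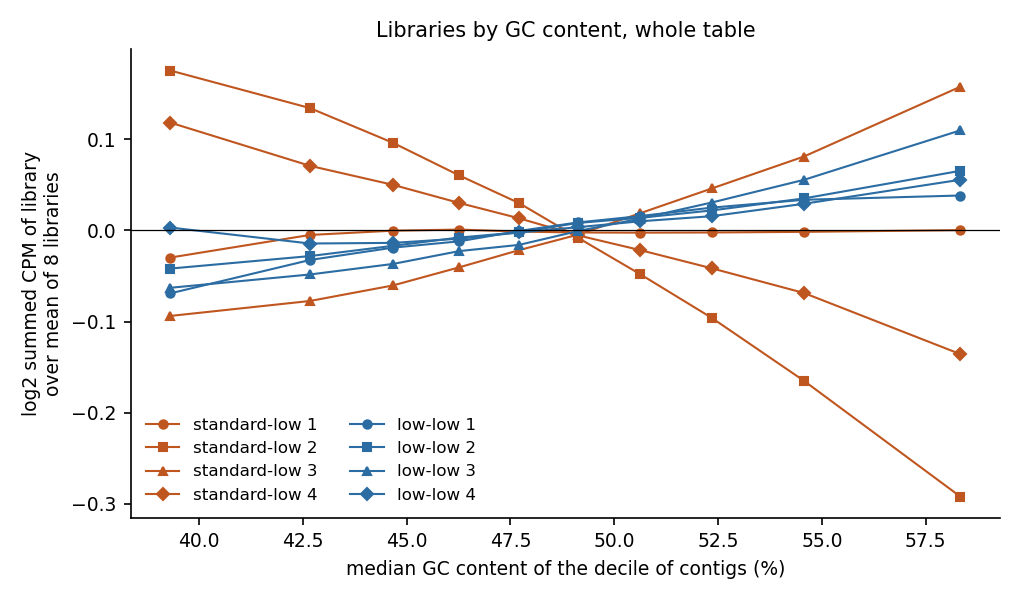
Libraries by GC content over the whole table. The x axis is the median GC content (%) of each decile of the contigs, the y axis the log2 ratio of a library's summed CPM to the mean of the 8 libraries, and each line is 1 library. Standard-low 2 and standard-low 4 slope downwards to -0.29 and -0.14 in the GC-richest decile, while standard-low 3 and the 4 low-low libraries slope upwards.

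No difference between the groups was detected in the summed counts of any of the 9 genes. Of the 9 sums 3 were higher and 6 lower in standard-low, with log2 fold changes (standard-low over low-low) from -0.22 to 0.16 and standard errors from 0.07 to 0.15. The median was -0.03, the same as the median of -0.03 over all 19098 gene sums, of which 41.4% were positive. With the composition-scaled fit 7 of the 9 were positive, beside 48.9% of all gene sums, so the direction of these small values depends on the scaling. With edgeR's quasi-likelihood test and Benjamini-Hochberg adjustment over all gene sums, 0 of the 9 passed 0.05, and the lowest adjusted p was 0.815. The background was 0.00524% of gene sums called, that is 1 gene. At an unadjusted p under 0.05 also 0 of the 9 stood, against 1.71% of all gene sums higher and 4.32% lower, and 0 of the 9 had all 4 standard-low libraries above or below all 4 low-low libraries, against 1.40% above and 2.08% below over all gene sums. DESeq2 and limma voom called 0 of the 9 as well. The 95% intervals of the 9 fold changes together spanned 0.700 to 1.39, and each gene's own interval, given below, is narrower. The labels do not say that replicates came from separate animals, fathers or litters, so a p-value here measures the spread between libraries, which may be technical.

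**Figure D2:**
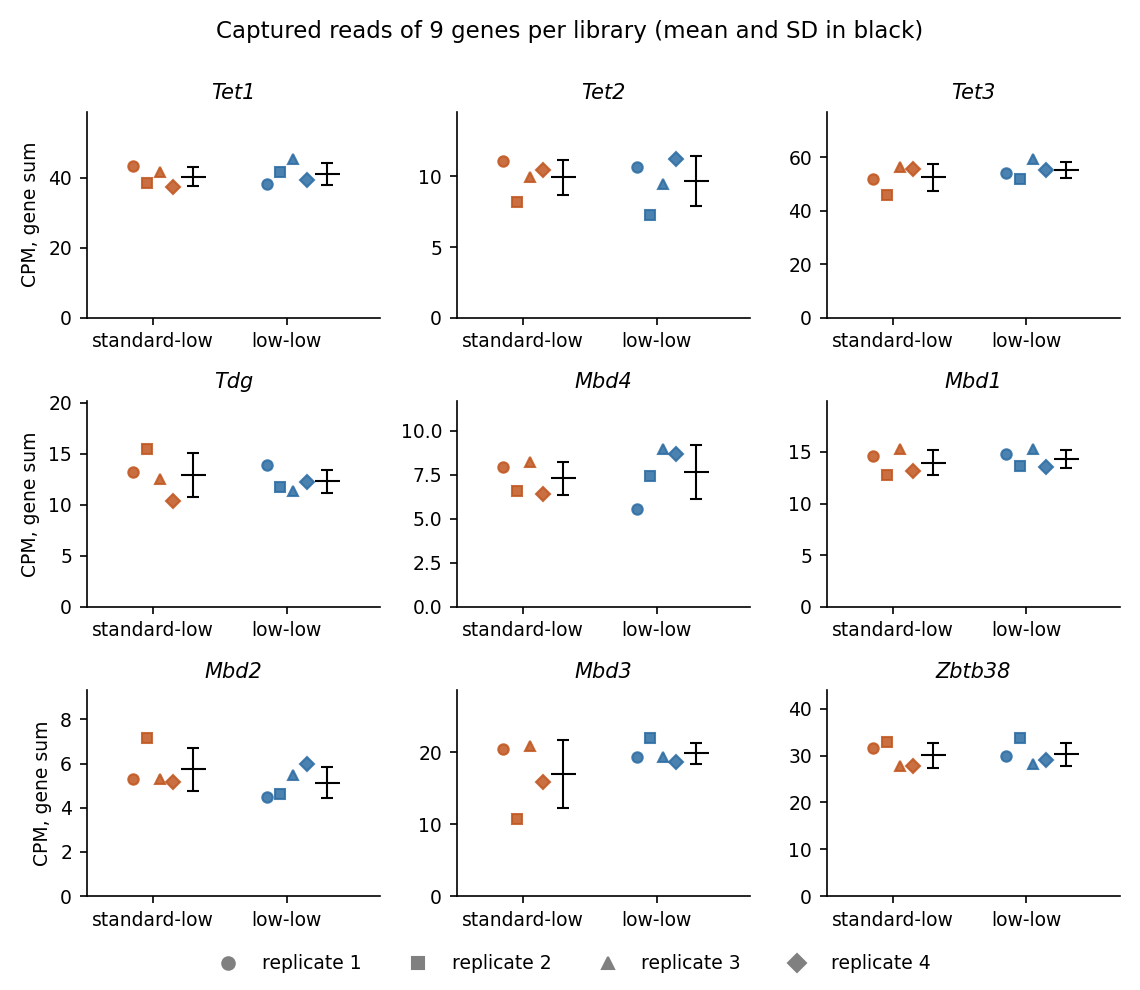
Summed CPM of the 9 genes in each library. Each panel is 1 gene, with the 4 standard-low libraries on the left and the 4 low-low libraries on the right (y axis in CPM from 0, marker shape by replicate number) and mean and SD in black. The groups overlap in every panel, and in Mbd3 the library standard-low 2 lies lowest at 10.7 CPM.

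Among the TET genes, Tet1 was covered by 15 contigs. It had 43.4, 38.5, 41.8 and 37.4 CPM in standard-low, against 38.2, 41.5, 45.3 and 39.3 CPM in low-low. The groups overlapped, and the log2 fold change was -0.03 ± 0.07 (SE, 95% interval of the fold 0.884 to 1.09, edgeR adjusted p = 0.961). Tet3, the TET gene with the most contigs (17), had 51.9, 45.7, 56.5 and 55.6 CPM in standard-low, against 54.2, 52.0, 59.2 and 55.2 CPM in low-low. Standard-low 2 was the lowest library, and the log2 fold change was -0.07 ± 0.07 (fold 0.860 to 1.05, edgeR adjusted p = 0.870). In the composition-scaled fit it was 0.02, of the opposite sign. Tet2, an enzyme of the family without the CXXC DNA-binding domain of TET1 and TET3, had 4 contigs. Its sums were 11.1, 8.18, 9.95 and 10.5 CPM in standard-low, against 10.7, 7.28, 9.47 and 11.2 CPM in low-low, with the libraries numbered 2 lowest in both groups. The log2 fold change was 0.04 ± 0.13 (fold 0.847 to 1.248, edgeR adjusted p = 0.969).

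Of the glycosylases, Tdg had 6 contigs and 13.3, 15.5, 12.5 and 10.4 CPM in standard-low, against 13.9, 11.7, 11.4 and 12.2 CPM in low-low. The highest and the lowest of the 8 values were both in standard-low, and the log2 fold change was 0.07 ± 0.12 (fold 0.886 to 1.24, edgeR adjusted p = 0.935). Its contigs aligned to mouse over 23.2% of their bases, the lowest share of the 9 genes. Mbd4 had 3 contigs and 7.96, 6.58, 8.21 and 6.42 CPM in standard-low, against 5.58, 7.43, 8.99 and 8.68 CPM in low-low. Low-low covered the range of standard-low, and the log2 fold change was -0.07 ± 0.15 (fold 0.771 to 1.18, edgeR adjusted p = 0.949).

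Among Mbd1, Mbd2, Mbd3 and Zbtb38, Mbd3 had the most negative sum. Its 3 contigs gave 20.5, 10.7, 20.8 and 15.9 CPM in standard-low, against 19.3, 22.0, 19.3 and 18.6 CPM in low-low. Standard-low 2 and 4 lay below all low-low libraries, while standard-low 1 and 3 lay above the median of low-low. The log2 fold change of the sum was -0.22 ± 0.14 (fold 0.700 to 1.05, unadjusted p = 0.123, edgeR adjusted p = 0.815). Mbd3 is the richest of the 9 genes in GC (59.4% over its contigs) and in CpG (3.41 per 100 bases), and standard-low 2 and 4 are the libraries low in GC-rich DNA. After composition scaling standard-low 2 was still the lowest library, at 13.1 CPM, with standard-low 4 next at 17.4 CPM. The scaled log2 fold change was -0.11 and the unadjusted edgeR p was 0.241. The part of base composition in the Mbd3 values was not tested. Without standard-low 2 the unscaled log2 fold change was -0.06, and without both standard-low 2 and 4 it was 0.06, of the opposite sign. Without standard-low 1 or standard-low 3 it was -0.33 or -0.34, with an unadjusted edgeR p of 0.0461 or 0.0136. In those fits 1103 and 2802 of 19098 gene sums had an unadjusted p under 0.05, against 1151 in the reported fit. Without each gene's most abundant contig the log2 fold change of Mbd3 was -0.29, with an unadjusted edgeR p of 0.0472. In that fit 804 of 14409 gene sums were under 0.05. All 3 Mbd3 contigs had negative values, from -0.16 to -0.29. Mbd1 had 14.6, 12.7, 15.3 and 13.2 CPM over 5 contigs in standard-low, against 14.8, 13.6, 15.3 and 13.5 CPM in low-low, a log2 fold change of -0.03 ± 0.10 (fold 0.849 to 1.13, edgeR adjusted p = 0.966).

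Mbd2, the gene whose protein domain is the capture reagent, had 3 contigs and the most positive sum, with 5.31, 7.17, 5.30 and 5.15 CPM in standard-low, against 4.51, 4.61, 5.46 and 5.99 CPM in low-low. Standard-low 2 alone exceeded all low-low libraries, and the log2 fold change was 0.16 ± 0.15 (fold 0.897 to 1.39, edgeR adjusted p = 0.870). Its 67.4 counts per library made it the thinnest of the 9 sums. Zbtb38 had 31.7, 32.8, 27.8 and 27.8 CPM over 14 contigs in standard-low, against 29.9, 33.8, 28.3 and 29.0 CPM in low-low, and the log2 fold change was -0.01 ± 0.08 (fold 0.883 to 1.12, edgeR adjusted p = 0.987).

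Per kb of contig, Mbd3 and Mbd1 had the highest levels. The table holds no contig with a summed count under 81, so a short contig appears only if its level per kb is high. Levels per kb are therefore not fully comparable between genes whose contigs differ in length. Mbd1 contig 2601631, with 134 bases and 5.99 CPM per kb, lay at this minimum. The mean over the 8 libraries was 5.80 CPM per kb for Mbd3, 5.38 for Mbd1, 4.70 for Mbd4, 4.03 for Tet3, 3.88 for Tet2, 3.81 for Tet1, 3.50 for Zbtb38, 3.26 for Tdg and 2.97 for Mbd2. Every neighbouring pair in this order overlapped in its range over the 8 libraries. The range of Mbd1, 4.85 to 5.84 CPM per kb, lay above that of Tet3, 3.43 to 4.44. Between libraries of a group the sums varied by 5.49% to 20.2% of their mean (coefficient of variation), except Mbd3 in standard-low, at 27.9%.

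CpG density went with the level of capture among the members. Their density ran from 1.17 to 8.26 CpG per 100 bases with a median of 2.46, against 2.26 over all contigs in genes, and their capture level ran from 1.45 to 6.58 CPM per kb. The rank correlation of density with CPM per kb was 0.622 over the 70 members (Pearson 0.426), beside 0.514 (Pearson 0.383) over contigs in genes. All contigs share the same 8 libraries, and these are descriptions without a test. The most strongly captured member, Mbd1 contig 1021317, had 6.58 CPM per kb at 2.64 CpG per 100 bases, and the weakest, Tet3 contig 1226314, had 1.45 CPM per kb at 2.02. The 3 members above 5.5 CpG per 100 bases differed in capture. The Tet3 contigs 3701621 and 3355432, at 8.26 and 5.93 CpG per 100 bases, had 3.80 and 3.49 CPM per kb, below the 4.23 that was the median of contigs in genes in that range. Zbtb38 contig 782896, at 5.52 CpG per 100 bases, had 5.20 CPM per kb, above the upper quartile of 5.18. Contigs 3355432 and 1226314 had 6 to 19 and 6 to 16 counts in a library. Both lay close to the lowest summed count in the table, 81, so their levels could hardly have been lower.

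**Figure D3:**
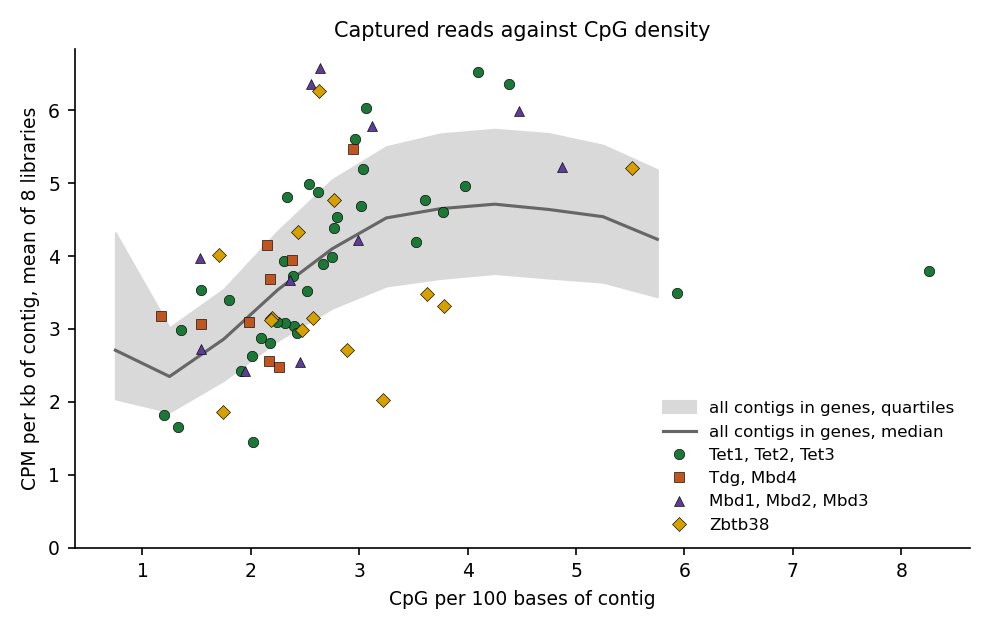
Capture against CpG density. Each symbol is a member contig, by gene family, with CpG per 100 bases on the x axis and CPM per kb (mean of 8 libraries) on the y axis. The grey line and band are the median and quartiles of all contigs in genes, in steps of 0.5 with the last step holding all above 5.5. The members follow the band, with the CpG-densest Tet3 contig, at 8.26 CpG per 100 bases, at 3.80 CPM per kb.

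Of the 70 single contigs, 31 had a higher and 39 a lower value in standard-low, with a median log2 fold change of -0.03, against -0.02 over contigs in genes, of which 47.4% were positive. In the composition-scaled fit 40 of the 70 were higher in standard-low. With edgeR and adjustment over all contigs 0 members passed 0.05, with a background of 0.0268% called, and the lowest adjusted p was 0.750. At an unadjusted p under 0.05 there were 3 members higher (a background of 2.93%) and 2 lower (a background of 2.76%). In 1 member the 4 standard-low libraries lay above all low-low libraries (background 1.63%) and in 0 below (background 1.61%). The shares of the 70 members are near the background, and no result about the members is read from them. Without standard-low 2, or without low-low 2, 2 members were left at that level. The standard error of a member contig's log2 fold change was 0.14 to 0.37, median 0.24.

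**Figure D4:**
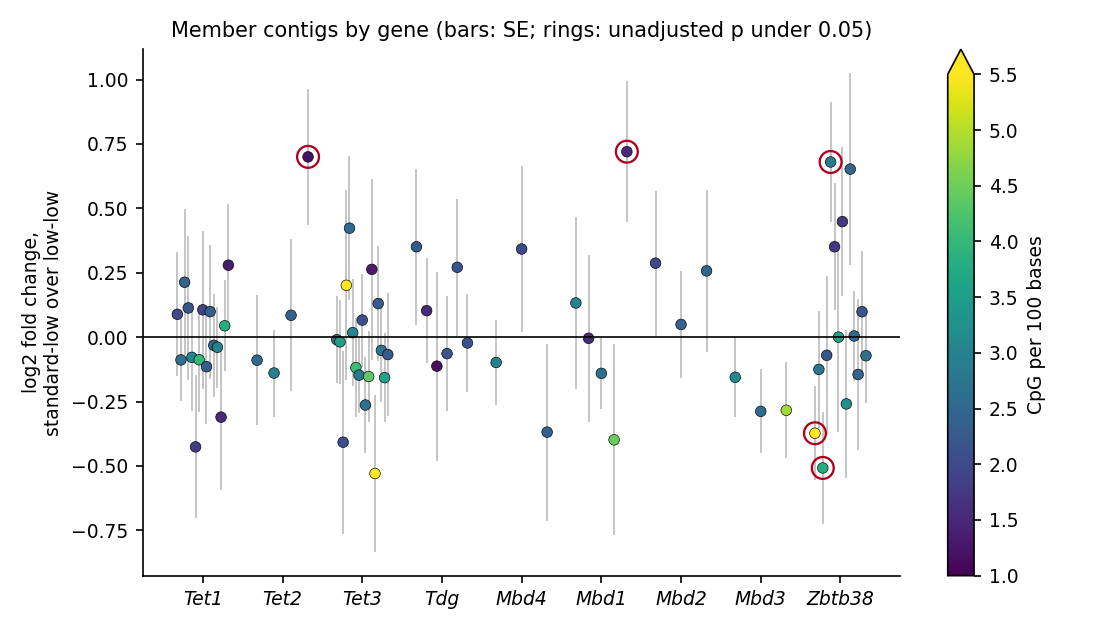
Log2 fold change of the 70 member contigs, standard-low over low-low, by gene and within a gene in order of mouse position. Bars are SE, colour is CpG per 100 bases and rings mark an unadjusted p under 0.05. Of the 5 ringed contigs 3 are in Zbtb38, and both ringed contigs below 0 are the CpG-rich pair of Zbtb38.

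The 5 contigs at that level lay in Zbtb38, Tet2 and Mbd1. Zbtb38 contig 2638552 had 2.05, 3.71, 2.74 and 2.11 CPM in standard-low, against 1.60, 1.49, 1.77 and 1.77 CPM in low-low. It was the 1 member whose groups did not overlap, with a log2 fold change of 0.68 ± 0.23 (unadjusted p = 0.00466, edgeR adjusted p = 0.750). With the composition-scaled fit the unadjusted edgeR p was 0.00170, and without standard-low 2, its highest library, the log2 fold change was 0.48 with an unadjusted p of 0.0606. The contig aligned to mouse over its full 796 bases. Tet2 contig 3450967 had 2.40, 2.36, 1.49 and 2.03 CPM in standard-low, against 1.38, 0.891, 1.04 and 1.77 CPM in low-low. Only standard-low 3 fell within the low-low range, and the log2 fold change was 0.70 ± 0.26 (unadjusted p = 0.00954, edgeR adjusted p = 0.799). In the composition-scaled fit it was 0.55, with an unadjusted edgeR p of 0.0360. Without low-low 2 the unadjusted edgeR p was 0.0495, and without standard-low 2 and 4 it was 0.0614. This contig has 1.20 CpG per 100 bases, the second lowest density of the members, and 25.7% of it aligned to mouse. Mbd1 contig 453743 had 2.14, 1.43, 2.65 and 1.52 CPM in standard-low, against 1.22, 0.817, 1.12 and 1.54 CPM in low-low, a log2 fold change of 0.72 ± 0.27 (unadjusted p = 0.0102, edgeR adjusted p = 0.803). Without standard-low 3 its unadjusted edgeR p was 0.0786, and without low-low 2 it was 0.0509. DESeq2 gave an adjusted p of 1 and limma voom of 0.891 or more for each of the 5.

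The other 2 were Zbtb38 contigs named after their values were seen. Contig 3922797 had 2.57, 1.27, 2.65 and 2.20 CPM in standard-low, against 2.37, 4.01, 2.81 and 3.15 CPM in low-low, a log2 fold change of -0.51 ± 0.22 (unadjusted p = 0.0225, edgeR adjusted p = 0.841). Contig 782896 had 3.68, 3.12, 3.15 and 3.21 CPM in standard-low, against 3.44, 5.27, 3.93 and 4.38 CPM in low-low, a log2 fold change of -0.37 ± 0.18 (unadjusted p = 0.0437, edgeR adjusted p = 0.872). In both, low-low 2 was the highest library. In the composition-scaled fit their unadjusted p was 0.0685 and 0.147.

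These contigs belong to a run of 4 in Zbtb38, chr9:96685380-96688081 by mouse position, which all had lower means in standard-low. The other two, contigs 4170099 and 3636591, had log2 fold changes of -0.13 ± 0.23 and -0.07 ± 0.31. Summed, the 4 contigs had 8.47, 8.01, 9.95 and 8.45 CPM in standard-low, against 10.01, 12.6, 10.2 and 10.6 CPM in low-low. Every standard-low library was below every low-low library, by a gap of 0.0615 CPM at its narrowest, but the run was picked for its values and is not tested. Contigs 4170099, 3922797 and 3636591 can be read without a stop codon over 99.5% or more of their length, and contig 782896 over 82.3%. Contig 2638552, higher in standard-low and 10.8 kb further along, is open over 40.3%. The remaining Zbtb38 contigs ran from -0.26 to 0.65, and the gene sum therefore held values of both signs.

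**Figure D5:**
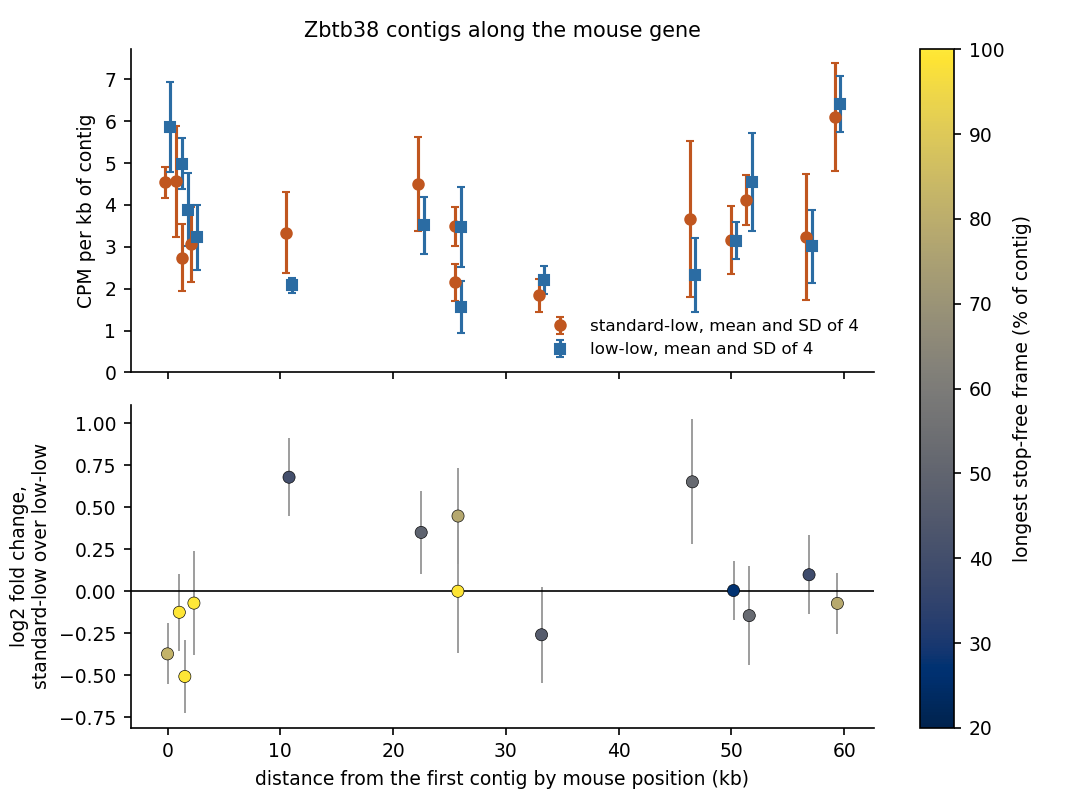
Zbtb38 contigs by mouse position, as distance in kb from the first contig. The upper panel gives CPM per kb (mean and SD of 4 libraries, standard-low in orange and drawn left of low-low in blue), the lower panel the log2 fold change with SE, coloured by the longest stop-free frame as % of the contig. The first 4 contigs, within 2.34 kb, all lie below 0, and contig 2638552 at 10.8 kb lies at 0.68.

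Long stop-free stretches were found in a minority of the members. Of the 62 members of at least 300 bases 10 were open over at least 95% of their length in 1 of the 6 reading frames, which is 16.1%, against 6.79% of contigs in genes. Tet1 held 4 of them, Tet3 held 3 and Zbtb38 held 3, while Tet2, Tdg, Mbd4, Mbd1, Mbd2 and Mbd3 held 0. A stop-free frame is what coding sequence shows, and no annotation of exons was used here. These 10 had a median of 2.76 CpG per 100 bases and 4.16 CPM per kb, against 2.39 and 3.68 in the other 52, and a median log2 fold change of -0.06, against -0.02. In the composition-scaled fit these medians were 0.03 and 0.02, so their order depends on the scaling. The Tet1 contigs 4067091, 2717307, 3507126 and 603515 had log2 fold changes of 0.04 ± 0.18, -0.09 ± 0.20, -0.11 ± 0.22 and 0.11 ± 0.31. Recurring 18-base words made up at least 5% of the words in 10 of the 70 members, 14.3%, against 19.4% of contigs in genes.

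The groups overlapped at the most abundant contig of each gene. Tet1 contig 1437537 had 8.64, 4.98, 8.45 and 5.07 CPM in standard-low, against 6.49, 6.69, 8.19 and 7.53 CPM in low-low, a log2 fold change of -0.09 ± 0.16. The 2 low values are those of standard-low 2 and 4. The contig has 45.8% GC. After composition scaling these 2 libraries had 4.79 and 5.19 CPM, against 8.84 and 8.69 CPM in standard-low 1 and 3. The cause of the low values was not tested. Tet3 contig 3860401 had 6.85, 6.07, 10.1 and 8.28 CPM in standard-low, against 8.56, 7.80, 9.55 and 8.83 CPM in low-low (-0.15 ± 0.15). Mbd3 contig 3242523 had 10.01, 4.30, 10.7 and 8.03 CPM in standard-low, against 9.24, 9.58, 8.99 and 8.99 CPM in low-low (-0.16 ± 0.16). For contig 1021317 of Mbd1, 2120058 of Tet2 and 2271381 of Mbd4 the log2 fold changes were -0.14 ± 0.14, -0.14 ± 0.17 and -0.10 ± 0.16. For contig 1660246 of Mbd2, 4659554 of Tdg and 2492527 of Zbtb38 they were 0.05 ± 0.21, -0.02 ± 0.19 and 0.00 ± 0.18. The edgeR adjusted p of these 9 was 0.952 or more.

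In the genes with no contig under an unadjusted p of 0.05, the contigs with the lowest p were Mbd3 contig 2518707 at -0.29 ± 0.16 (unadjusted p = 0.0805) and Tet3 contig 3701621 at -0.53 ± 0.30 (unadjusted p = 0.0848) with edgeR. The Tet3 contig had 0.941, 1.18, 1.16 and 0.761 CPM in standard-low, against 1.15, 1.19, 2.33 and 1.23 CPM in low-low, with low-low 3 the highest library. Tet1 contig 105569, Tdg contig 1721680, Mbd4 contig 273414 and Mbd2 contig 672053 followed at -0.43 ± 0.28, 0.35 ± 0.30, -0.37 ± 0.34 and 0.29 ± 0.28, with unadjusted edgeR p of 0.128 to 0.310. Single libraries moved these values. Without low-low 4 the Tet1 contig was at -0.63 (unadjusted p = 0.0276, edgeR adjusted p = 0.992), and without low-low 2 the Tdg contig was at 0.08. Without low-low 3 the Mbd4 contig was at -0.08, and without standard-low 2 the Mbd2 contig was at 0.00378.

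The sign of the difference went with CpG density. Split at the tertiles of contigs in genes (1.99 and 2.59 CpG per 100 bases), 10 of 14 members in the lowest class had higher values in standard-low, 15 of 26 in the middle class and 6 of 30 in the highest class, with median log2 fold changes of 0.27, 0.06 and -0.11. Over all contigs in genes the shares were 60.5%, 49.1% and 32.7% and the medians 0.07, -0.01 and -0.10. Before composition scaling the same order was therefore seen across contigs in genes. After composition scaling the members' medians were 0.15, 0.05 and -0.01, and 10 of 14, 16 of 26 and 14 of 30 were higher in standard-low. The scaled medians over all contigs in genes were 0.012, 0.005 and -0.004, with 21568 of 41694 higher in the lowest class. Whether the members differ from contigs in genes after scaling was not tested. Standard-low 1 to 4 had summed CPM of -0.06, -0.19, 0.11 and -0.14 in the CpG-densest decile of all contigs, relative to the mean of the 8 libraries on the log2 scale, against -0.02, 0.10, 0.10 and 0.10 in low-low 1 to 4.

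Contigs outside the 9 genes but nearest to one of them numbered 20, of which 9 lay within 10 kb. The nearest was 148 bases from Mbd4, contig 1350017, with 1.56 ± 0.238 CPM in standard-low and 1.56 ± 0.484 CPM in low-low (SD, n = 4 each). The next was 1182 bases from Tet1, contig 3658812, with 1.18 ± 0.219 CPM in standard-low and 1.06 ± 0.660 CPM in low-low. Zbtb38 had 10 such contigs and Mbd2 had 7. For each of these 2 genes 1 contig had an unadjusted p under 0.05, both higher in standard-low, beside 2.93% of all contigs that were higher at that level. Contig 1216282, 5159 bases from Zbtb38, had a log2 fold change of 0.73 ± 0.33 (unadjusted p = 0.0271, edgeR adjusted p = 0.851). Contig 4125593, 196748 bases from Mbd2, had one of 0.53 ± 0.23 (unadjusted p = 0.0232, edgeR adjusted p = 0.842).

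No call was made among 53 other genes of the pathway, in 5 lists. Of these 48 had contigs inside, 370 in all, and 0 contigs and 0 gene sums passed with edgeR. With an unadjusted p below 0.05, 8 contigs were higher and 12 lower in standard-low, near the 2.93% and 2.76% over all contigs. The gene sums were positive for 20 and negative for 28, with a median log2 fold change of -0.02. By list, the median was -0.06 over 9 genes listed for TET cofactors and 5-hydroxymethylcytosine (Idh1, Ogt and others). It was -0.01 over 13 genes of base excision repair and 0.07 over 6 further genes of methyl-CpG readers and MBD relatives. Over 16 partners of readers in repressor complexes it was -0.03, and over the 4 DNA methyltransferases -0.05. Of the 48 sums 1 had an unadjusted p under 0.05, lower in standard-low as were 4.32% of all gene sums at that level, and it was that of Uhrf1, a protein that recognises hemimethylated DNA and guides DNMT1. It had 38.3, 26.5, 40.7 and 32.7 CPM in standard-low, against 40.0, 40.5, 40.8 and 38.2 CPM in low-low. Standard-low 2 and 4 were again the low libraries, and the log2 fold change was -0.21 ± 0.10 (unadjusted p = 0.0419, edgeR adjusted p = 0.807), or -0.09 with an unadjusted p of 0.158 in the composition-scaled fit. The lists' genes without a contig were Dppa3, Gadd45a, Gadd45b, Gadd45g and Zbtb33.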

How the data were processed

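The authors deposited a table of whole-number read counts per contig for the 8 libraries, with the sequence of each contig and, per the file headers and contig names, its mouse match, nearest mouse gene and distance. The submitters' processing notes name FastQC and BWA, while versions, assembler and mouse build are not given in the sources used. Library names in the header are parted by spaces and values by tabs, and columns were taken in header order. The lowest summed count was 81, so contigs under some minimum are not in the table. No input libraries were used here. Gene names rest on similarity to mouse. All 9 symbols also occur in the RefSeq annotation of the sand rat. Exon or intron position was not analysed here.

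Contigs, and counts summed over the contigs inside each gene, were tested in R 4.3.3 with edgeR 4.0.16 (TMM of the contig table, glmQLFit, two-sided glmQLFTest, Benjamini-Hochberg adjustment over all 548060 contigs or 19098 genes, threshold 0.05). Requiring a mean of 10 counts per library removed no contig. Standard errors are the log2 fold change over the root of the F statistic. Alternatives used DESeq2 1.42.0 and limma voom 3.58.1, and the composition-scaled fit used offsets from 10 bins each of GC content and CpG density. Named were the 9 gene sums, the most abundant and the lowest-p contig of each, and pathway genes with an unadjusted p under 0.05. The test was tried on simulated counts with known changes, in which all features had the same spread between libraries. In gene sums edgeR recovered 28.4%, 77.6% and 95.5% of changes of 1.25-fold, 1.5-fold and 2-fold. In contigs it recovered 1.5%, 32.8% and 74.2% of changes of 1.5-fold, 2-fold and 4-fold. Changes of 1.5-fold in a single contig would therefore mostly be missed. Members and lists were chosen with earlier results of these data known.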

Additional observations from a re-analysis of the deposited data

Results flagged for a closer look

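Within the groups of 4, 54 were examined for a library far from the other three (9 gene sums and 18 named contigs, each in both groups), and 4 had a gap to the nearest other library beyond Dixon's critical value at the 95% level. Chance gives about 1 such group in 20. In Mbd2, the sum of standard-low 2 was 7.17 CPM, with the other standard-low libraries at 5.15 to 5.31 CPM. In Tdg contig 4659554, standard-low 2 had 5.23 CPM, with the others at 2.96 to 3.34 CPM. In Tet3 contig 3701621, low-low 3 had 2.33 CPM, with the others at 1.15 to 1.23 CPM. In Tet1 contig 105569, low-low 4 had 0.922 CPM, with the others at 1.91 to 2.09 CPM. The log2 fold change of the Tet3 contig without low-low 3 and of the Mbd2 sum without standard-low 2 kept their signs, at -0.23 and 0.03. Without low-low 4 the Tet1 contig was at -0.63 (unadjusted p = 0.0276, edgeR adjusted p = 0.992), against -0.43 with all 8 libraries. Without standard-low 2 the Tdg contig was at -0.25, against -0.02.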

How the results depend on the processing

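No member contig or gene sum passed the adjusted threshold under any alternative. The lowest adjusted p was 0.406 for a contig (Tet2 contig 3450967) and 0.216 for a sum (Mbd3), both without standard-low 3. Of all contigs, 147 were called in the reported fit, against 32 with DESeq2, 50 with limma voom, 35 at a mean of at least 30 counts and 68 to 207 when 1 library was left out. The 1 called gene sum became 2 with DESeq2, 0 with limma voom, 0 without each gene's most abundant contig, 3 with composition scaling, 5 without standard-low 2 and 4, and 0 to 30 in the leave-one-out fits, the 30 being without standard-low 3. With composition scaling and without standard-low 2 and 4, both chosen after seeing the data, 7 of the 9 sums were positive. Deviations of same-numbered libraries had correlations of -0.02, 0.04, 0.11 and -0.01, beside -0.13 to 0.06 for libraries of different numbers. Values this small cannot settle whether the numbers mark pairs. The labels name no pairs, and the numbers were not taken as such. With the replicate block 206 contigs and 3 gene sums were called, 0 of them members. In that fit 1347 gene sums had an unadjusted edgeR p under 0.05, against 1151 in the reported fit. That of Mbd3 was 0.0717, against 0.123.

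Signs turned, for values near 0 and also for Mbd3, whose sum was at -0.22. With composition scaling, log2 fold changes were 0.00188 for Tet1, 0.0154 for Tet3, 0.0427 for Mbd1 and 0.0268 for Zbtb38. Without standard-low 2 and 4 they were 0.0534 for Tet1, 0.0796 for Mbd4, 0.0702 for Mbd1 and 0.0584 for Mbd3, and 0.171 for Mbd3 contig 3242523, 0.0187 for Mbd4 contig 2271381, 0.246 for Tet1 contig 1437537, 0.0078 for Tet2 contig 2120058 and -0.111 for Zbtb38 contig 2492527, which was -0.0176 with limma voom. With contigs aligned over at least 50% they were -0.094 for Tet2, -0.113 for Tdg and 0.00352 for Mbd4. Without the most abundant contig they were 0.00383 for Mbd4 and 0.206 for Mbd1. Zbtb38 was 0.00276 by library total alone and 0.0274 with contigs to 10 kb. Leaving out 1 library gave -0.0651 to 0.0219 for Tet1, -0.0759 to 0.123 for Tet2, -0.0309 to 0.16 for Tdg, -0.196 to 0.0133 for Mbd4, -0.0802 to 0.0101 for Mbd1 and -0.057 to 0.0474 for Zbtb38. For contigs it gave -0.0288 to 0.238 (Mbd2 contig 1660246), -0.307 to 0.0578 (Mbd3 contig 3242523), -0.248 to 0.0653 (Tdg contig 4659554), -0.225 to 0.0347 (Tet1 contig 1437537) and -0.166 to 0.105 (Zbtb38 contig 2492527). The cause of these turns was not tested.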
